A study of Mus musculus with 44 samples.

Results

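Satellite glial cells (SGCs) sorted from dorsal root ganglia 14 days after ligation of the sciatic nerve were compared with SGCs sorted 14 days after sham surgery. These are 8 of the 44 libraries of the series, 4 ligated and 4 sham, and they were taken by their labels alone. All came from C57BL/6 mice aged 9 to 11 weeks, and the labels name no transgene, deletion or drug in either group. The ligated mice had a full ligation of the sciatic nerve. In both groups the L3 and L4 ganglia were digested with enzymes, fixed in 4% paraformaldehyde, labelled with antibodies and the DNA dye Hoechst, and sorted by flow cytometry. RNA was then extracted with a kit made for fixed, embedded tissue, and each library was sequenced over 3 lanes. Sex, the antibodies of the sort, the side of the sham ganglia and any pooling of animals are not stated in the labels, so p-values here measure only the spread between libraries. The design text of the study lists this comparison as one of its own, injury against sham at the same time after surgery. The same 2 surgeries at 3 days, with 4 libraries each, serve as a reference for time.

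Expression was deposited as FPKM, the fragments of a transcript scaled to its length and to the size of the library. Levels are therefore given per length and can be set side by side between genes. A difference is ligated minus sham on log2(FPKM + 1), with its standard error (SE), and it understates the fold change of genes at low FPKM. Values of single libraries are listed in the order 1 to 4 of each group, and where values are set against each other, those after ligation come first. The files hold no counts per library, so the depth behind a single value is unknown. The authors' deposited table of this comparison gives a mean normalized count per gene, pooled over libraries. Genes at 1 FPKM or more numbered 11985 to 12775 per library. Some single libraries stood apart. Neutrophil markers summed to 154 FPKM in sham library 3 and to at most 4.08 FPKM in the other 7, and erythrocyte markers to 40.3 FPKM in sham library 4 and at most 5.52 FPKM in the other 7. Ligated library 4 held less neuronal RNA than the others of its group, and ligated library 2 had the lowest median correlation with the other libraries (0.819, across genes).

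SGCs wrap the cell bodies of sensory neurons in a thin sheath. They take up potassium and glutamate around the neuron, are joined by gap junctions, and make lipids for their own membranes. After a peripheral nerve is injured, glia and neurons of the ganglion both respond: neurons switch on a regeneration programme, and glia can take on a reactive state in which acute-phase, complement and antigen presentation genes are raised.

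The sorted cells carried the markers of SGCs in all 8 libraries. Fabp7, a fatty acid binding protein of satellite and immature glia, stood at 9718, 12502, 9378 and 11501 FPKM after ligation and 9761, 10141, 11922 and 12385 after sham surgery. Sox10, the transcription factor of the neural crest glial lineage, stood at 109, 149.9, 140.1 and 159 against 133, 143, 147 and 156 FPKM. In both genes the groups overlapped. Of 15 SGC markers, all tested, 2 had a positive and 13 a negative difference (median −0.15, against −0.02 over all 13924 genes tested). An unadjusted limma p under 0.05 was found for 2, both lower. In 3 of the 15, every ligated library lay below every sham library, against 2.38% of all genes tested. The 15 summed to 35734, 43784, 35219 and 36190 against 40531, 42479, 42315 and 43262 FPKM, overlapping through ligated library 2. None of the 15 was called by limma or in the authors' deposited table. Markers of other cells were present as well, and in bulk RNA fewer cells of a type and less RNA per cell cannot be told apart. The endothelial gene Egfl7 was at 164, 115, 183 and 153 against 91.6, 154, 56.1 and 91 FPKM, and the neuronal gene Snap25 at 71.7, 47.2, 64.5 and 20.1 against 62.8, 56, 93.3 and 24. Myelinating Schwann cell markers summed to 742, 716, 677 and 674 against 741, 703, 721 and 704 FPKM. Repair Schwann cell markers, which include Gap43, summed to 292, 302, 361 and 120 against 91.6, 124, 103 and 109 FPKM, with ligated library 4 inside the sham range. None of 9 lymphocyte markers passed the filter for testing.

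One gene passed the test over all genes. The fit in limma called 1 of 13924 genes at an adjusted p under 0.05 (0.00718%), and 718 genes had an unadjusted p under 0.05 (5.16%), 337 of them higher (2.42%) and 381 lower (2.74%). The lowest adjusted p after that gene was 0.181. With array weights, which give noisier libraries less weight, limma called 10 genes, 7 higher and 3 lower, and without ligated library 4 or with the 14-day libraries alone it called 2. The authors' deposited table of this comparison, made with DESeq2 per the submitters' processing notes, calls 202 of 19185 genes (1.05%), 123 higher after ligation (0.641%) and 79 lower (0.412%). Of these, 157 could be tested in the FPKM values, and 156 had the same sign there. The exception was Appl2, at 12, 14.7, 24.3 and 13.3 FPKM after ligation and 17, 14.2, 14.9 and 13.9 after sham surgery. Among the 157, the 4 ligated libraries lay wholly above or below the 4 sham libraries in 112. Over all genes tested they lay above in 1.69% and below in 2.38%. Neither count is an independent check. The 157 were called for a difference between these same groups, and the sign of that table was read against the FPKM values. Calls of the authors' deposited table carry the words rose and fell below, with its log2 fold change given as ligated over sham. Of the 202 calls, 55 had a mean normalized count under 50, and 41 matched to a gene with FPKM values did not pass the filter for testing. Genes are named by their p in either analysis, by a call or a high level within a list, or, for other list members, by their role and with their values seen. The shares over all genes in this paragraph are the reference for the counts of list members below.

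The gene called by limma was Serpina3n (ENSMUSG00000021091, chromosome 12, 104406729 to 104414329, GRCm38, protein-coding), a secreted inhibitor of serine proteases and a marker of reactive astrocytes. It stood at 167, 201, 223 and 191 FPKM in the ligated libraries and at 62.6, 73.8, 81.2 and 59.3 in the sham libraries. Even the lowest ligated library lay well above the highest sham library. The difference was 1.49 ± 0.18 (limma adjusted p = 0.0066), and the authors' deposited table gives 1.52 ± 0.15 with an adjusted p of 3.02e-19. Serpina3n belongs to a cluster of near-identical paralogs on chromosome 12, among which reads can be split in counting. Its neighbour Serpina3g stood at 1.21, 3.22, 0.947 and 1.05 FPKM after ligation and 2.6, 2.49, 2.09 and 1.69 after sham surgery, with no gap between the groups.

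The window before the start of Serpina3n is shown because it is the one gene called by both analyses. It spans the 250 bases upstream of the RefSeq start (chr12:104406458-104406707, GRCm38.p6, plus strand).
Serpina3n: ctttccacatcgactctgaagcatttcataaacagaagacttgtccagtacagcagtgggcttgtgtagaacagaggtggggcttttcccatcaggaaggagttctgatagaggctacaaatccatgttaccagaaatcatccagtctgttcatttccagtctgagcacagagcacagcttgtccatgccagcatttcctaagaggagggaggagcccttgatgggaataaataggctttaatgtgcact
No base is in capitals, since none of 5 motifs searched on both strands was found in it: TTCNNNGAA (the STAT core), TGANTCA (AP-1), GAAANNGAA (the interferon repeat), CCAAT (the CCAAT box) and TCACCCCAC (a sterol regulatory element). Over all 27025 genes with such a window, these letters occur in 8.13%, 7.82%, 8.18%, 37.5% and 0.555% of genes.

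Osmr was the other reactive glia gene with a call. Osmr, the receptor subunit for oncostatin M, stood at 5.09, 10.1, 11.6 and 7.77 FPKM after ligation and 3.77, 4.64, 4.38 and 1.65 after sham surgery, and ligated library 1 lay only just above the highest sham library. It rose by the authors' deposited table (log2 fold change 1.28 ± 0.31, adjusted p = 0.00891), while limma gave 1.07 ± 0.29 (adjusted p = 0.513). Of 12 reactive glia genes 9 could be tested, 8 with a positive and 1 with a negative difference (median 0.38) and 2 with an unadjusted limma p under 0.05. Serpina3n and Osmr are the 2 that the authors' deposited table calls. Vim, an intermediate filament, was abundant in both groups (1623, 1997, 1912 and 2079 against 1836, 1774, 1629.8 and 1771 FPKM) and the groups overlapped. Cd44, a hyaluronan receptor, differed by 0.38 ± 0.20 and Cp, the copper carrier ceruloplasmin, by −0.23 ± 0.13. Gfap, the filament protein by which reactive glia are often stained, was close to absent, at 0.464, 0.0332, 1.47 and 0.701 FPKM after ligation and 0.264, 0.51, 0 and 0.0323 after sham surgery.

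Around Osmr, the list of gp130 cytokine pathway genes held few differences. Ligands of this family bind receptors that share the subunit gp130 (Il6st) and act through the kinase Jak1 and the transcription factor Stat3, which induces its own inhibitor Socs3. Stat3 stood at 52.1, 94.4, 46.9 and 43.7 FPKM after ligation and 68.5, 39.9, 39.1 and 35 after sham surgery. Sham library 1 lay above 3 of the 4 ligated libraries. It rose by the authors' deposited table (0.35 ± 0.09, adjusted p = 0.0235), and its unadjusted limma p was 0.295. Il6st was at 11.9, 9.15, 9.14 and 12.5 against 11.8, 12.3, 10.2 and 14 FPKM, and Socs3 at 14.5, 24.9, 12.9 and 12.5 against 13.1, 10.8, 15.4 and 11.3, in both cases with overlap. Of the 9 tested genes of this list 6 had a positive and 3 a negative difference (median 0.29), and the median was 0.11 without ligated library 2. Il11ra1, a receptor gene of this family off the list and chosen after its values were seen, fell by the authors' deposited table (−0.90 ± 0.22, adjusted p = 0.00907).

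Complement genes were higher after ligation, by a call in 3 cases. C4b, the complement factor that is cleaved in the classical and lectin pathways, stood at 59.6, 61.7, 101 and 80.6 FPKM after ligation and 45.6, 42.9, 45.3 and 32.9 after sham surgery. Serping1, the inhibitor of the proteases C1r and C1s, stood at 119, 111, 164 and 131 against 92.5, 83.9, 80.8 and 68.8 FPKM. In both genes every ligated library lay above every sham library. C4b rose by the authors' deposited table (0.93 ± 0.18, adjusted p = 0.000214), as did Serping1 (0.72 ± 0.16, adjusted p = 0.00186). In limma the differences were 0.82 ± 0.20 and 0.67 ± 0.16, both with an adjusted p of 0.409. Cd59a, a membrane protein that blocks the attack complex, was at 293, 244, 275 and 269 FPKM after ligation and 221, 266, 196 and 194 after sham surgery. Its sham library 2 reached into the ligated range, and the authors' deposited table calls it higher by 0.41 ± 0.08 (adjusted p = 0.000214). These 3 are the calls of that table among 10 complement genes, against 0.641% called higher over all its genes. Of the 9 tested, 7 had a positive and 2 a negative difference (median 0.31), and 3 had an unadjusted limma p under 0.05, all higher. C3 itself was nearly absent, at 0.141 FPKM or less in every library. Reads of C4b may be shared with its copy C4a, which stood at 1.27, 0.562, 0.174 and 0.171 FPKM after ligation and 0.545, 0.11, 0.948 and 1.01 after sham surgery.

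**Figure D1:**
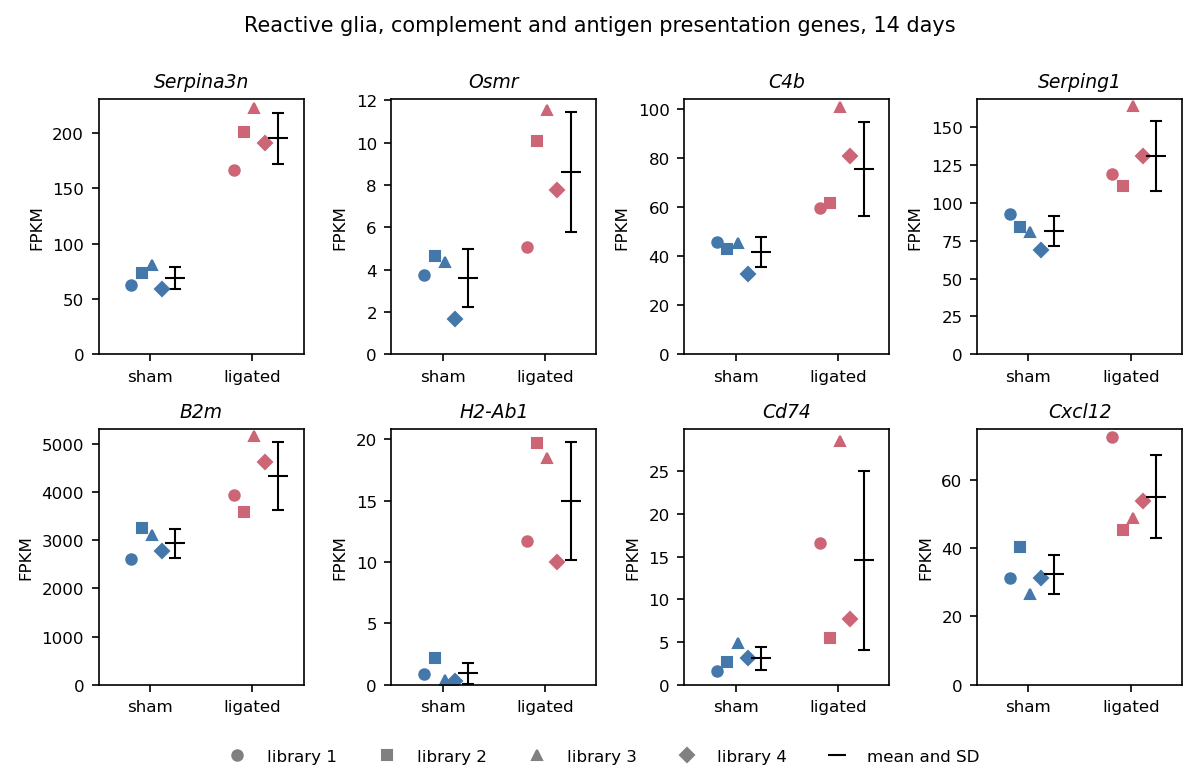
FPKM of 8 genes in each 14-day library; symbols mark library number, black lines the mean and SD of 4 libraries. In all 8 genes each ligated library lies above each sham library, and the sham libraries of H2-Ab1 lie close to 0.

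Most class I antigen presentation genes were higher after ligation by a small amount. B2m (ENSMUSG00000060802, chromosome 2, 122147686 to 122153083), the light chain of class I molecules, stood at 3940.1, 3598, 5178 and 4631 FPKM after ligation and 2605, 3254, 3118 and 2768 after sham surgery. H2-K1, a classical heavy chain, stood at 180.4, 178, 275 and 224 against 154, 168, 147 and 130.3, and H2-D1, the other one, at 152, 129, 190.5 and 177 against 91.8, 109, 121 and 123. In these 3 genes the groups did not overlap. B2m rose by the authors' deposited table (0.58 ± 0.15, adjusted p = 0.0168), and limma gave 0.55 ± 0.17 (adjusted p = 0.797). H2-Q7, a non-classical class I gene, also rose in the authors' deposited table (1.27 ± 0.37, adjusted p = 0.0493). Its levels were low, at 3.92, 9.59, 8.81 and 7.48 FPKM after ligation and 2.36, 2.74, 2.72 and 4.8 after sham surgery, and ligated library 1 lay below sham library 4. The class I heavy chains are close paralogs, and their reads can be assigned to one another. H2-K1 (0.50 ± 0.16) and H2-D1 (0.53 ± 0.17) were not called by either analysis. Of 17 class I genes tested, 15 had a positive and 2 a negative difference (median 0.39), and 4 had an unadjusted limma p under 0.05, all higher. The negative ones were the peptide transporter genes Tap1 and Tap2, which overlapped between the groups and, for Tap2, included libraries listed at 0. The authors' deposited table gives both the opposite sign (0.08 and 0.39), without a call.

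The window of B2m is shown because class I genes are classic targets of interferon and NF-kB signalling (chr2:122147437-122147686, GRCm38.p6, plus strand). Capitals mark the interferon repeat GAAANNGAA and the CCAAT box, here read as ATTGG on the opposite strand.
B2m: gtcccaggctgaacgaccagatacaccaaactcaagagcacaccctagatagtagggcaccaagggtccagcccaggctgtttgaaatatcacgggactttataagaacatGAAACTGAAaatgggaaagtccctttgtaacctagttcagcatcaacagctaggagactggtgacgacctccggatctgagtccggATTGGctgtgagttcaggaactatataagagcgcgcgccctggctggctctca
The repeat starts 139 bases before the gene's start. It was found in 4 of 15 class I genes with a window (26.7%) and in 13 of 21 genes of the interferon list (61.9%), against 8.18% of all genes with a window. A CCAAT box was found in 12 of the 15 class I genes (80%).

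Of the class II genes, 3 rose from low levels. H2-Ab1 (ENSMUSG00000073421, chromosome 17, 34257689 to 34269419), the beta chain of I-A, stood at 11.7, 19.7, 18.5 and 10 FPKM after ligation and 0.844, 2.13, 0.412 and 0.278 after sham surgery. H2-Aa, its alpha chain, stood at 5.45, 6.27, 17.2 and 4.49 against 0.923, 0.866, 4.07 and 1.65, and Cd74, the invariant chain, at 16.6, 5.46, 28.6 and 7.71 against 1.62, 2.69, 4.83 and 3.09. No ligated library of these 3 genes lay within the sham range. All 3 rose by the authors' deposited table: H2-Ab1 by 4.02 ± 0.60 (adjusted p = 4.11e-08), H2-Aa by 2.40 ± 0.59 (adjusted p = 0.00925) and Cd74 by 2.21 ± 0.51 (adjusted p = 0.00383). That table calls 0.641% of all its genes higher. In limma H2-Ab1 differed by 3.10 ± 0.55 (adjusted p = 0.181), and of the 6 tested class II genes 5 had a positive and 1 a negative difference (median 1.33). The negative one was H2-DMb1, at 1.33, 2.79, 0.242 and 0 FPKM against 0, 0.773, 2.06 and 1.33. The authors' deposited table gives H2-DMb1 the opposite sign (0.25), without a call. Ciita, the master regulator of class II genes, was below the filter for testing. The median was 0.98 without ligated library 3 and 2.09 with a pseudocount of 0.1.

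Professional antigen-presenting cells also make class II molecules, so macrophage markers were read in the same libraries. The 15 macrophage markers together summed to 42.9, 16.2, 39.4 and 27 FPKM in the ligated libraries and 10.1, 4.44, 19.5 and 16.4 in the sham libraries. Ligated library 2 lay within the sham range for this sum, and among the ligated libraries it held the highest H2-Ab1 and the lowest Cd74. Ligated library 3, with the second highest sum, held the highest H2-Aa and Cd74. Of the 15 markers 2, 7, 1 and 3 were listed at 0 in the ligated and 4, 9, 5 and 7 in the sham libraries. Csf1r, the receptor that defines the lineage, was at 0.527, 0, 0.951 and 0.7 FPKM after ligation and at 0 in all sham libraries, and Adgre1 (F4/80) was at 0.265 FPKM or less in all 8. Ctss, a lysosomal protease that trims the invariant chain, stood at 6.2, 3.27, 6.83 and 0.804 against 0.796, 0, 0.196 and 0.139 FPKM. It rose by the authors' deposited table (3.62 ± 0.95, adjusted p = 0.0184), together with the macrophage genes Aif1 and Fcgr3, which were at 0 in all sham libraries. Aif1 and Fcgr3 had mean normalized counts of only 18.6 and 20.9. These 3 are the calls among the 15 markers. Lyz2 (0.45 ± 0.50), Cd68 (0.14 ± 0.79) and Tyrobp (0.98 ± 3.23) were not called there, nor was Itgam, which had a negative log2 fold change (−2.52 ± 1.49). The part of macrophages in the class II values was not tested.

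Interferon response genes were mostly higher after ligation, without calls. Ifitm3, a membrane protein that blocks virus entry, stood at 2195, 1785, 3175 and 2098 FPKM after ligation and 1432, 2037, 1649.5 and 1340.3 after sham surgery. Mx1, an antiviral GTPase, stood at 7.69, 4.21, 8.68 and 2.84 against 0.934, 2.41, 0.0116 and 0. Ifitm3 overlapped between the groups and Mx1 did not. Of 28 genes tested, 26 had a positive and 2 a negative difference (median 0.40), 4 had an unadjusted limma p under 0.05, all higher, and none was called by limma or in the authors' deposited table. The list summed to 3786, 3093, 5376 and 3253 FPKM in the ligated and 2500.5, 3638, 2942 and 2282 in the sham libraries. Ligated library 3 was the highest and sham library 2 lay above 2 of the ligated libraries. Without ligated library 3 the median was 0.20.

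Further interferon-linked genes off that list were called by the authors' deposited table and are named here after their values were seen. In the authors' deposited table the rise was 1.57 ± 0.36 for Ifi47, an interferon-induced GTPase (adjusted p = 0.00449), 1.96 ± 0.54 for Zbp1, a sensor of nucleic acids (adjusted p = 0.0353), and 1.64 ± 0.34 for Il18bp, the secreted inhibitor of interleukin 18 (adjusted p = 0.00088). Il18bp stood at 14.7, 10.3, 26.8 and 14.7 FPKM after ligation and 6.26, 6.75, 3.67 and 3.18 after sham surgery, with a clear gap, while Il18 itself overlapped (50.8, 37, 60.5 and 46.1 against 41.8, 56.9, 39.9 and 62.1). Apobec3, a cytidine deaminase that restricts retroviruses, belongs to the genes of lowest limma p. Its values were 16.6, 11.5, 8.85 and 15 FPKM against 4.93, 2.62, 7.81 and 3.26, a difference of 1.36 ± 0.29 (limma adjusted p = 0.37), and it rose by the authors' deposited table (1.28 ± 0.26, adjusted p = 0.000457).

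Among 15 cytokines and chemokines, Cxcl12 is the 1 that the authors' deposited table calls. This chemokine, the ligand of Cxcr4, stood at 72.6, 45.3, 48.8 and 53.9 FPKM after ligation and 31.2, 40.4, 26.6 and 31.4 after sham surgery, so the groups did not overlap. It rose by 0.79 ± 0.16 in the authors' deposited table (adjusted p = 0.000539). Cxcl9, a chemokine off that list and chosen after its values were seen, rose there too (7.88 ± 1.91, adjusted p = 0.00802). Its mean normalized count was only 20.6, and it was below the filter for testing in limma. Cxcl10, an interferon-induced chemokine, was higher on average but overlapped (129, 52.3, 151 and 90.2 against 65.3, 80.9, 69 and 40.5 FPKM). Csf1, a growth factor of macrophages, was at 22.3, 19.8, 24.6 and 13.8 against 15.2, 17.3, 12 and 15.7 FPKM with a difference of 0.38 ± 0.24. Of the classic inflammatory cytokines, Il1b was listed at 0 in all 8 libraries, and Tnf and Il6 reached at most 0.471 and 0.793 FPKM.

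**Figure D2:**
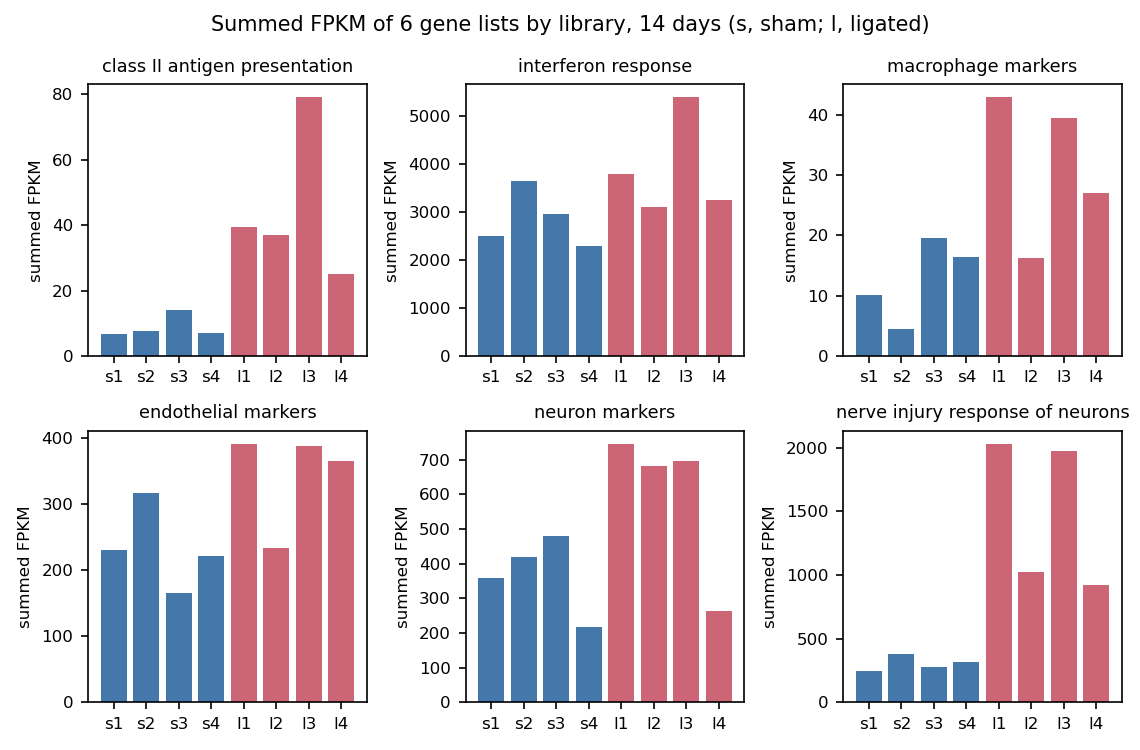
Summed FPKM of 6 gene lists in each 14-day library, sham 1 to 4 (s) and ligated 1 to 4 (l). Class II and nerve injury genes separate the groups in every library, whereas interferon, macrophage, endothelial and neuron sums overlap.

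Genes that make cholesterol were lower after ligation. Hmgcs1 (ENSMUSG00000093930, chromosome 13, 119690379 to 119708260), which makes the HMG-CoA from which mevalonate is formed, stood at 310.5, 262, 238 and 265 FPKM after ligation and 421, 381, 412 and 477 after sham surgery. The highest ligated library was below the lowest sham library. Hmgcs1 fell by the authors' deposited table (−0.63 ± 0.12, adjusted p = 0.000214), and limma gave −0.65 ± 0.11 (adjusted p = 0.181). Of 23 genes of synthesis and uptake 21 could be tested, all with a negative difference (median −0.48). In 13 of them all ligated libraries lay below all sham libraries, against 2.38% of all genes tested. An unadjusted limma p under 0.05 was found for 15, all lower, against 2.74% lower among all genes tested. The list summed to 1794, 1576, 1350.2 and 1694 FPKM in the ligated and 2385, 2117, 2238 and 2336 in the sham libraries, with no overlap. The median stayed between −0.42 and −0.53 under every alternative run.

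Enzymes both before and after squalene were called. Fdft1, which joins farnesyl units into squalene, stood at 51.7, 42.8, 37.1 and 38.7 against 67, 54.8, 59.5 and 56.2 FPKM, and Sqle, which oxidises squalene, at 66.3, 69.2, 67.4 and 66.8 against 95.5, 86.4, 98.2 and 83.1. Lss, which closes the rings to lanosterol, stood at 20.8, 21.7, 17.9 and 25 against 35, 29.5, 32.7 and 36. In these 3 genes every ligated library was below every sham library. All 3 fell by the authors' deposited table, with log2 fold changes of −0.46 for Fdft1 (adjusted p = 0.0418), −0.41 for Sqle (adjusted p = 0.0168) and −0.56 for Lss (adjusted p = 0.0223). Msmo1, which removes methyl groups from the sterol ring, stood at 285, 186, 173 and 234 FPKM after ligation and 327, 318, 387 and 337 after sham surgery. Tm7sf2, a sterol reductase, stood at 94.6, 124, 110.1 and 101 against 148, 157, 151 and 157, and Dhcr7, which makes the last step to cholesterol, at 57.6, 43.2, 37.2 and 41.7 against 76.7, 57.9, 64.8 and 64.4. None of these groups overlapped. These too fell by the authors' deposited table, with log2 fold changes of −0.70, −0.54 and −0.54 (adjusted p = 0.000214, 0.00937 and 0.0417). With Hmgcs1 these are the 7 list members it calls, against 0.412% called lower over all its genes. Sc5d, a sterol desaturase, had one of the 10 lowest limma p among lower genes (129.9, 123, 119.9 and 171 FPKM against 175, 193, 209.7 and 210.0, difference −0.54 ± 0.13). Fdps, which makes farnesyl units, had overlapping groups (317, 196, 126 and 296 against 416, 291, 204 and 241 FPKM). Erg28, a scaffold of the sterol demethylation complex, is not on the list and was chosen after its values were seen. It stood at 196, 158, 181 and 153 FPKM against 227, 223, 282 and 297 and fell by the authors' deposited table (adjusted p = 0.0184).

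The windows of Hmgcs1 (chr13:119690101-119690350, plus strand) and Msmo1 (chr8:64733579-64733828, minus strand, both GRCm38.p6) are shown because the genes fell together and Srebf2, the regulator of this pathway, binds sterol elements beside CCAAT boxes. Capitals mark TCACCCCAC, a sterol regulatory element, in Hmgcs1, the CCAAT box on either strand in both genes, and TGANTCA in Msmo1.
Hmgcs1: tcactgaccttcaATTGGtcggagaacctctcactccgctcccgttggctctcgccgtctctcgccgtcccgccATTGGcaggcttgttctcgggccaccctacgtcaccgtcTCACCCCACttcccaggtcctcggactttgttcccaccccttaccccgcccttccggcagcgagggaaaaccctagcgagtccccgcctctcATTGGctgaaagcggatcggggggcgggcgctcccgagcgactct
Msmo1: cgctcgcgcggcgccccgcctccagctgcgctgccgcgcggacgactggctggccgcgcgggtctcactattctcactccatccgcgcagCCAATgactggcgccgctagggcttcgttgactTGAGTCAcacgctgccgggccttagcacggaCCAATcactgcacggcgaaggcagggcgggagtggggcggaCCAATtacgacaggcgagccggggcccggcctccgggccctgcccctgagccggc
The sterol element of Hmgcs1 starts 137 bases before the gene's start and was found in 0.555% of all genes with a window. Of the cholesterol list, 15 genes had a window, and 14 of these held a CCAAT box (93.3%), against 37.5% of all genes with a window. Among those 15, Hmgcs1 alone held the sterol element in these letters.

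**Figure D3:**
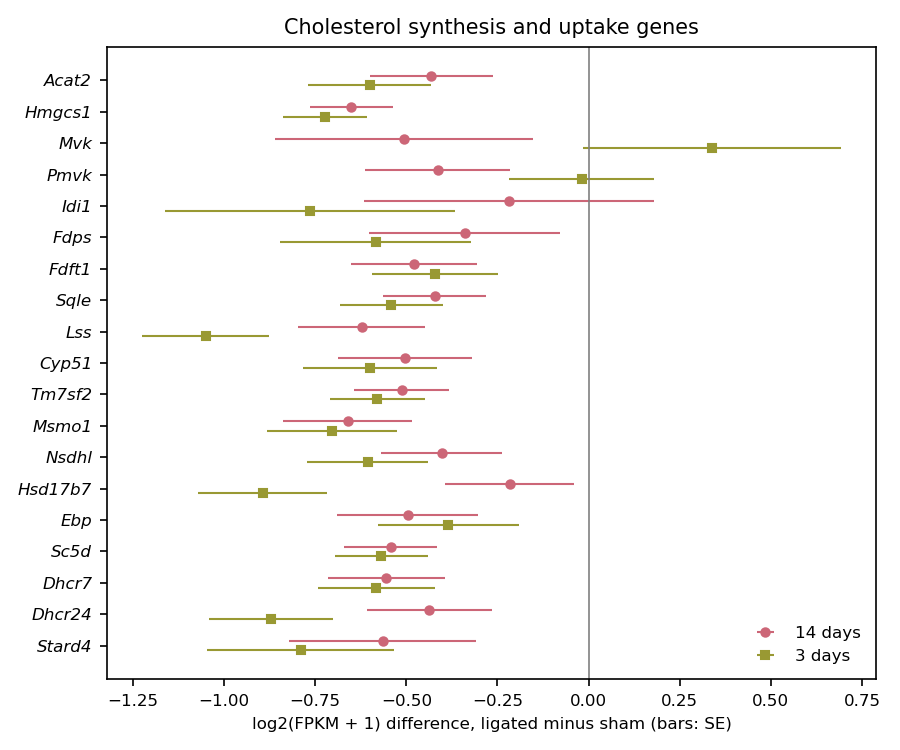
Difference between ligated and sham SGCs on log2(FPKM + 1), with SE, for 19 of the 21 tested genes of cholesterol synthesis and uptake at 14 days (circles) and 3 days (squares). All 19 circles lie left of 0.

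Of 6 regulators of sterol synthesis, 3 had a positive and 3 a negative difference, and 2 had an unadjusted limma p under 0.05, both lower. None was called by limma or in the authors' deposited table. Insig1, which holds the regulator in the endoplasmic reticulum and is itself a target of it, stood at 88.7, 108, 99.6 and 82 FPKM after ligation and 112, 159, 238 and 135 after sham surgery, without overlap. Srebf2 was at 10.5, 6.71, 8.77 and 7.35 against 13.6, 10.8, 9.71 and 11.6 FPKM and overlapped only through ligated library 1. Their limma differences were −0.71 ± 0.21 and −0.42 ± 0.17, and neither passed. Srebf1, the regulator of fatty acid synthesis, overlapped in part (10.5, 18.6, 15.9 and 10.3 against 13, 11.4, 13.8 and 9.3). Of 9 genes of sterol efflux and storage, Npc2, a lysosomal cholesterol carrier, is the 1 called: it stood at 72.2, 64, 70.4 and 63.4 FPKM after ligation and 85.9, 97.4, 79.7 and 92.1 after sham surgery and fell by the authors' deposited table (−0.37 ± 0.09, adjusted p = 0.00765). The exporter gene Abcg1 differed by −0.49 ± 0.22, and Abca1 overlapped (15, 17.4, 17.8 and 16.5 against 13.2, 15.3, 16.8 and 19 FPKM). Apoe, the lipid carrier that SGCs make in bulk, was at 5808, 7105, 5112 and 5045 against 7893, 7652, 6485 and 7054 FPKM, a difference of −0.34 ± 0.18 that did not pass.

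Fatty acid synthesis genes had smaller differences. Of 12 tested, 11 were negative and 1 positive (median −0.18), and none was called by limma or in the authors' deposited table. In 3 of the 12, all ligated libraries lay below all sham libraries, against 2.38% of all genes tested. Scd2, a desaturase and the most abundant of them, stood at 433, 429, 409.6 and 498 FPKM after ligation and 480.5, 516, 499 and 566 after sham surgery. Elovl5, an elongase, stood at 101, 106, 95.7 and 112 against 120.0, 119.7, 131 and 121. The Elovl5 groups did not overlap, and its difference was −0.24 ± 0.11 in limma. Of the list, 3 genes had an unadjusted limma p under 0.05, all lower, against 2.74% lower among all genes tested.

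The genes of lowest limma p among the lower ones, and 1 further list member, included the following. Crip1, a small LIM protein, stood at 1009.5, 915, 868 and 868 FPKM after ligation and 1348, 1481, 1391 and 1512 after sham surgery, and S100b, a calcium-binding protein of glia, at 267, 309.9, 302 and 287 against 412, 401, 383 and 417. Both showed a gap between the groups. Crip1 fell by the authors' deposited table (−0.68 ± 0.09, adjusted p = 1.62e-10), as did S100b (−0.46 ± 0.11, adjusted p = 0.00925). The limma differences were −0.65 ± 0.13 (adjusted p = 0.207) and −0.47 ± 0.11 (adjusted p = 0.409). Cdo1, the first enzyme of cysteine breakdown, stood at 16, 12.7, 13.8 and 22 FPKM against 28.6, 38.7, 27.2 and 31.4 and fell as well by the authors' deposited table (−0.92 ± 0.23, adjusted p = 0.0104). Phgdh, which starts serine synthesis, stood at 25.5, 26, 26.4 and 17.4 FPKM against 41.1, 34.9, 32.6 and 36.8 and fell by the authors' deposited table (−0.59 ± 0.15, adjusted p = 0.0141). It was the 1 member called among 12 genes of serine synthesis and amino acid stress, of which 9 of 11 tested had a positive difference.

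The next 7 genes were picked from the calls of the authors' deposited table after their values were seen, and stand for no group. Aldoc, the aldolase of glia, stood at 314, 253, 288 and 270.0 FPKM after ligation and 462, 384, 347 and 392 after sham surgery. Acsbg1, which activates long-chain fatty acids, stood at 114, 112, 114 and 121 against 156, 148, 168 and 153, and Slc6a8, the creatine transporter, at 41.7, 32.2, 23.4 and 29.6 against 52, 52.9, 42.1 and 55.6. Each of these had every ligated library below every sham library. They fell by the authors' deposited table, with log2 fold changes of −0.46, −0.41 and −0.65 (adjusted p = 0.00379, 0.0153 and 0.0184). Bcan, a matrix proteoglycan of glia (−0.52, adjusted p = 0.00958), Fbln2, a matrix glycoprotein (−0.44, adjusted p = 0.0359), Pla2g7, a secreted phospholipase (−0.77, adjusted p = 0.00257), and Gpx1, a peroxide-reducing enzyme (−0.36, adjusted p = 0.00289), fell too by the authors' deposited table.

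Genes of glial potassium and glutamate handling had small differences. Of 11 tested, 2 were positive and 9 negative (median −0.21), with an unadjusted limma p under 0.05 for 1 higher and 3 lower. The list of 12 genes summed to 653, 649.5, 679 and 687 FPKM in the ligated and 751, 794, 751 and 809.9 in the sham libraries, with no overlap. Kcnj10, the potassium channel Kir4.1, was at 51.3, 59.2, 56.1 and 63.3 against 62.8, 66.4, 61 and 76.2 FPKM (−0.21 ± 0.12). Gja1, the gap junction protein connexin 43, was at 105, 92, 108 and 97.2 against 106, 109.6, 113 and 125 FPKM (−0.17 ± 0.18). Both overlapped between the groups. Glul, which turns glutamate into glutamine, was at 151, 113, 149 and 159 against 164, 163, 162 and 167 FPKM, with every ligated library below the sham range. Against this drift, Slc1a2, the glutamate transporter GLT-1, stood at 4.54, 3.9, 4.41 and 5.86 FPKM after ligation and 2.82, 3.61, 2.24 and 2.97 after sham surgery, without overlap. It rose by the authors' deposited table (0.73 ± 0.20, adjusted p = 0.037) and is the 1 member called. Its level was far below that of Slc1a3, the transporter GLAST (28.1, 29.2, 27.3 and 28.7 against 31.3, 35.5, 32 and 35.6 FPKM).

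Genes of the neuronal injury response differed strongly in these sorted glia. Gal, the neuropeptide galanin, stood at 883, 236, 946 and 481 FPKM after ligation and 11.8, 50.8, 33.5 and 21.8 after sham surgery. Sprr1a, a small proline-rich protein of regenerating axons, stood at 192, 71.4, 139 and 51.2 against 6.52, 17.8, 6.68 and 20.9, and Nts, the neuropeptide neurotensin, at 370.3, 224, 247 and 144 against 82, 54.6, 51.9 and 73.3. None of these groups overlapped, although the ligated libraries differed from each other by several fold. All 3 rose by the authors' deposited table, Gal by 4.47 ± 0.56 (adjusted p = 5.2e-12), Sprr1a by 3.07 ± 0.45 (adjusted p = 3.05e-08) and Nts by 1.90 ± 0.24 (adjusted p = 3.31e-11). In limma the difference of Gal was 4.37 ± 0.82 (adjusted p = 0.2).

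Transcription factors and growth proteins of this response were higher as well. Atf3, an injury-induced transcription factor, stood at 44.4, 29.3, 46.1 and 15.5 FPKM after ligation and 2.74, 11.2, 11.1 and 11.6 after sham surgery. Sox11, a factor of axon regrowth, stood at 15, 9.29, 17.8 and 6.14 against 0.849, 3.63, 1.35 and 2.8, and Gap43, a protein of growth cones, at 228, 202, 292 and 61 against 28, 52.8, 20.2 and 54.4. Ligated library 4 was the lowest of its group in all 3 but still above every sham library. By the authors' deposited table Atf3 rose by 1.84 ± 0.38 (adjusted p = 0.000844), Sox11 by 2.49 ± 0.42 (adjusted p = 3.23e-06) and Gap43 by 2.24 ± 0.51 (adjusted p = 0.0039). Flrt3, an adhesion protein induced by axotomy (1.30 ± 0.19, adjusted p = 4.11e-08), Cacna2d1, the calcium channel subunit bound by gabapentin (1.36 ± 0.27, adjusted p = 0.000346), and Stmn4, a microtubule regulator (2.78 ± 0.62, adjusted p = 0.00245), complete the 9 calls of the authors' deposited table among 20 genes. Over all genes, 0.641% were called higher there, and 2.42% of those tested were higher at an unadjusted limma p under 0.05. Of the 17 tested, 16 had a positive and 1 a negative difference (median 1.36, and 1.86 with a pseudocount of 0.1), 12 had an unadjusted limma p under 0.05, all higher, and 8 had all ligated above all sham libraries, against 1.69% of all genes tested. The negative one was Adcyap1, a neuropeptide gene, at 8.88, 6.02, 6.16 and 0 FPKM against 2.77, 9.45, 5.35 and 4.59. Npy, neuropeptide Y, stood at 101, 32, 74.7 and 18 against 1.34, 21.5, 0 and 0 FPKM and overlapped through sham library 2.

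Neuronal RNA was present in both groups. The 13 neuron markers, of which Tubb3 was not analysed here, summed to 745, 681, 695 and 264 FPKM in the ligated and 360.1, 418, 479 and 217 in the sham libraries. Library 4 was the lowest of each group. Of the 12 tested, 9 had a positive and 3 a negative difference (median 0.30). The 2 that rose by the authors' deposited table were Stmn2, a growth-cone microtubule protein (1.29 ± 0.27, adjusted p = 0.000689), and Thy1, a surface glycoprotein (1.62 ± 0.39, adjusted p = 0.00679). Stmn2 stood at 329, 256, 296 and 121 FPKM after ligation and 86.6, 124, 128 and 73.5 after sham surgery, and ligated library 4 lay inside the sham range. Nefl, the light neurofilament chain, was at 45.8, 26.4, 51.8 and 14.1 against 31, 26, 29.7 and 12.2 FPKM, and Snap25, given above, overlapped as well. None of 7 nociceptor markers tested was called by limma or in the authors' deposited table, and none had an unadjusted limma p under 0.05. Calca, the precursor of CGRP, was at 149, 139.5, 63.8 and 34.3 FPKM after ligation and 65.1, 212, 114 and 85.5 after sham surgery, and Tac1, the precursor of substance P, at 33.2, 66.7, 6.23 and 6.9 against 42, 90.3, 38.7 and 37.5. Whether the injury transcripts came from neurons carried into the sort or from the glia was not tested.

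**Figure D4:**
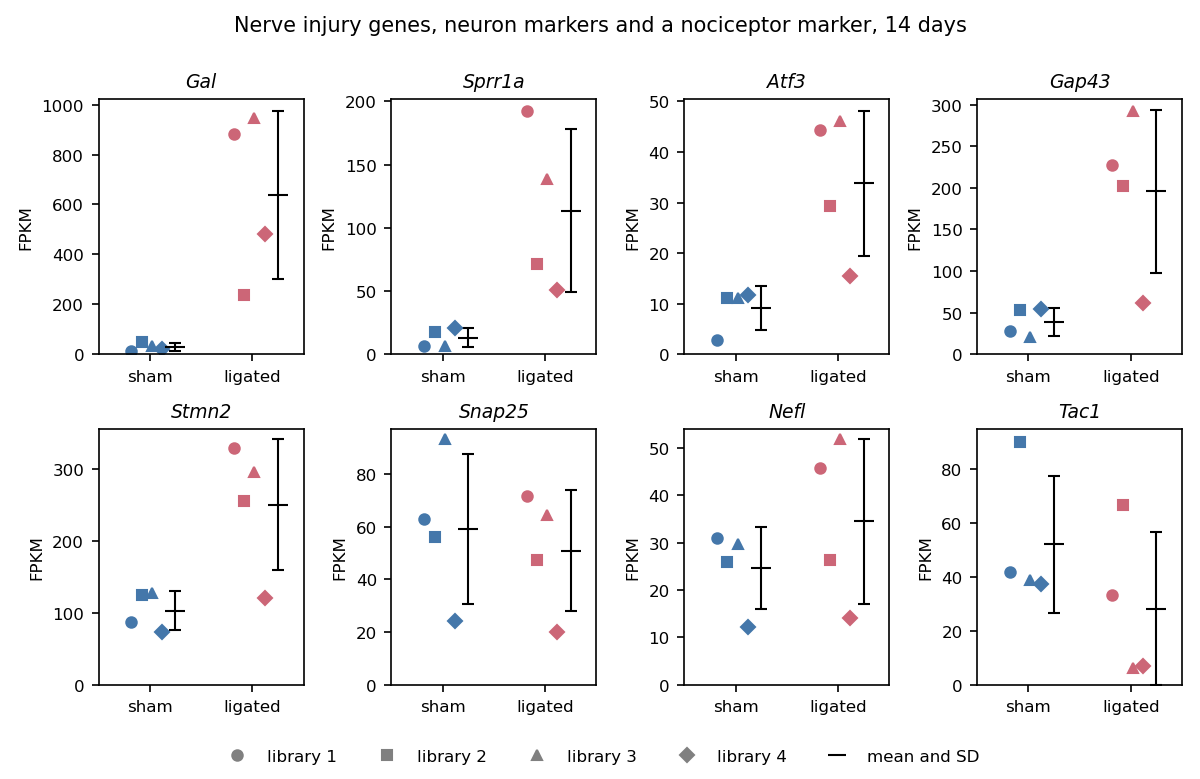
FPKM of 4 nerve injury genes (Gal, Sprr1a, Atf3, Gap43), 3 neuron markers (Stmn2, Snap25, Nefl) and the nociceptor marker Tac1 in each 14-day library; symbols mark library number, black lines the mean and SD of 4 libraries. The injury genes separate the groups, and ligated library 4 (diamond) is the lowest ligated library in 6 of the 8 genes.

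Some genes of lowest p belong to none of the lists. Ahr, the aryl hydrocarbon receptor, stood at 12.6, 12.2, 11.2 and 11.3 FPKM after ligation and 5.41, 5.99, 6.33 and 5.16 after sham surgery, with tight groups and a wide gap. It rose by the authors' deposited table (1.06 ± 0.12, adjusted p = 7.11e-14), and limma gave 0.93 ± 0.18 (adjusted p = 0.207). Sez6l, a membrane protein of neurons, stood at 5.95, 3.17, 4.16 and 2.21 FPKM against 0.294, 0.331, 0.404 and 0.712 and rose by 3.18 ± 0.39 in the authors' deposited table (adjusted p = 2.76e-12). Basp1, a growth-cone protein, stood at 29, 38.5, 31 and 14.1 against 4.23, 14.3, 5.93 and 4.42 FPKM, with ligated library 4 just under sham library 2. It rose by the authors' deposited table (2.00 ± 0.40, adjusted p = 0.000508), as did Sdc1, a heparan sulphate proteoglycan (2.36 ± 0.40, adjusted p = 8.12e-06), and Tubb6, a beta tubulin (1.25 ± 0.25, adjusted p = 0.000536). The galectin gene Lgals1, chosen after its values were seen, stood at 506, 399.9, 508 and 174 FPKM against 147, 238, 151 and 143. Its ligated library 4 lay within the sham range, and it rose by the authors' deposited table (1.20 ± 0.27, adjusted p = 0.00368).

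On the lower side, Gprc5c, an orphan receptor, stood at 7.41, 8.77, 8.89 and 5.86 FPKM after ligation and 14.8, 15.3, 21.3 and 12.9 after sham surgery and fell by the authors' deposited table (−0.96 ± 0.20, adjusted p = 0.000914). Ltbp2, a latent TGF-beta binding protein of the matrix, stood at 0.729, 0.478, 0.383 and 0.894 against 2.96, 3.36, 1.06 and 2.51 FPKM and fell there too (−1.84 ± 0.42 in the authors' deposited table, adjusted p = 0.00319). Ric3, a chaperone of nicotinic receptors, had no overlap (3.49, 2.93, 3.58 and 4.97 against 7.29, 6.75, 8.45 and 8.75 FPKM) and was called by neither analysis (adjusted p = 0.207 in limma and 0.159 in the authors' deposited table). Cfap100, a protein of motile cilia, was another such gene, at 23.1, 22, 27.4 and 22.2 FPKM against 44.3, 57.3, 57.8 and 64. Its difference was −1.20 ± 0.22 in limma and −0.52 ± 0.26 in the authors' deposited table.

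Of the cell cycle list 1 gene was called and of the endothelial list none. Prc1, a protein of the mitotic spindle midzone, stood at 9.53, 8.64, 7.33 and 10.4 FPKM after ligation and 4.77, 2.8, 2.72 and 2.96 after sham surgery, and Top2a, a topoisomerase of dividing cells, at 5.39, 10.6, 3.73 and 14.3 against 2.93, 1.03, 2.33 and 1.61. In both, no ligated library reached down to the sham range. Prc1 rose by 1.43 ± 0.23 and Top2a by 1.92 ± 0.36 in the authors' deposited table (adjusted p = 6.33e-07 and 9.05e-05). Top2a is the 1 member called among 8 cell cycle genes, and Pcna, a replication clamp, overlapped (25.8, 27.7, 24.2 and 23.2 against 26.9, 23.3, 21.6 and 23.9 FPKM). Off that list and chosen after their values were seen, the mitotic genes Kif22, Kif11 and Spc24 rose by the authors' deposited table. Their log2 fold changes were 1.83 ± 0.45, 3.78 ± 1.05 and 3.97 ± 1.13 (adjusted p = 0.00891, 0.0365 and 0.0438). Kif11 and Spc24 had mean normalized counts of only 43.9 and 18.3. Plvap, a protein of endothelial fenestrae, stood at 5.59, 4.73, 3.5 and 4.23 FPKM after ligation and 1.52, 1.46, 1.27 and 1.55 after sham surgery and rose by 1.69 ± 0.28 in the authors' deposited table (adjusted p = 1.64e-06). All 10 endothelial markers had a positive difference (median 0.46), none was called by limma or in the authors' deposited table, and 1 had an unadjusted limma p under 0.05. They summed to 391, 234, 388 and 365 FPKM in the ligated and 231, 317, 166 and 222 in the sham libraries, with ligated library 2 inside the sham range. Endothelial cells also make class I molecules and Cxcl12, and their part in those differences was not tested. Ligated library 2, which had the lowest endothelial sum of its group, also had the lowest B2m and Cxcl12 of its group, and both were above every sham library. Sham library 2, which had the highest endothelial sum of its group, had the highest B2m and Cxcl12 of its group.

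The effect at 14 days was then set against that at 3 days, each day having sham libraries of its own. A limma contrast of the 2 effects called 1 of 13924 genes (0.00718%), and 584 had an unadjusted p under 0.05 (4.19%). The gene called was Polr2b, a subunit of RNA polymerase II, which is listed at 0 in all 4 ligated libraries of 3 days and stood at 6.75, 6.01, 4.84 and 6.6 FPKM in the ligated libraries of 14 days. Polr2b did not differ at 14 days beyond the spread (−0.08 ± 0.19). A listed 0 need not mean that a gene had no reads. Tagln is listed at 0 in all 8 libraries of 14 days, yet the authors' deposited table gives it a mean normalized count of 242. Whether this holds for Polr2b at 3 days was not tested. Serpina3n stood at 158 ± 18 FPKM (mean ± SD, n = 4) after ligation and 94.6 ± 24.2 after sham surgery at 3 days, and at 195 ± 23.1 and 69.2 ± 10.1 at 14 days. Its effect was 0.76 ± 0.18 at 3 days and 1.49 ± 0.18 at 14 days, a difference of 0.72 ± 0.25 that did not pass (unadjusted p = 0.0109, adjusted p = 1 in limma).

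Class II genes had a wide gap in their median difference between the days. H2-Ab1 had an effect of −0.00 ± 0.55 at 3 days against 3.10 ± 0.55 at 14 days (difference 3.10 ± 0.78, unadjusted p = 0.00125, adjusted p = 0.998 in limma), and Cd74 had −0.74 ± 0.75 against 1.75 ± 0.75. The median over the 6 genes was −0.08 at 3 days and 1.33 at 14 days. Interferon genes had medians of 0.08 and 0.40. Only 5 of the 15 macrophage markers passed the filter for testing, with medians of −0.36 and 0.94. Among these, Ctss and Aif1 stayed under 1 FPKM in every 14-day sham library, so the filter can favour members that are high after ligation. The macrophage median at 14 days was 0.37 without ligated library 1 and 1.53 without ligated library 2. Cholesterol genes had −0.60 at 3 days and −0.48 at 14 days, with Hmgcs1 at −0.72 ± 0.11 and −0.65 ± 0.11 (difference 0.07 ± 0.16). The injury genes had 1.55 and 1.36. Within them Atf3 went from 3.36 ± 0.51 to 1.81 ± 0.51 and Nts from 0.44 ± 0.72 to 1.84 ± 0.72, and neither difference between the days passed (unadjusted p = 0.0489 and 0.19 in limma). S100b had −0.10 ± 0.11 at 3 days and −0.47 ± 0.11 at 14 days (unadjusted p of the difference 0.0328). No list median was tested between the days.

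**Figure D5:**
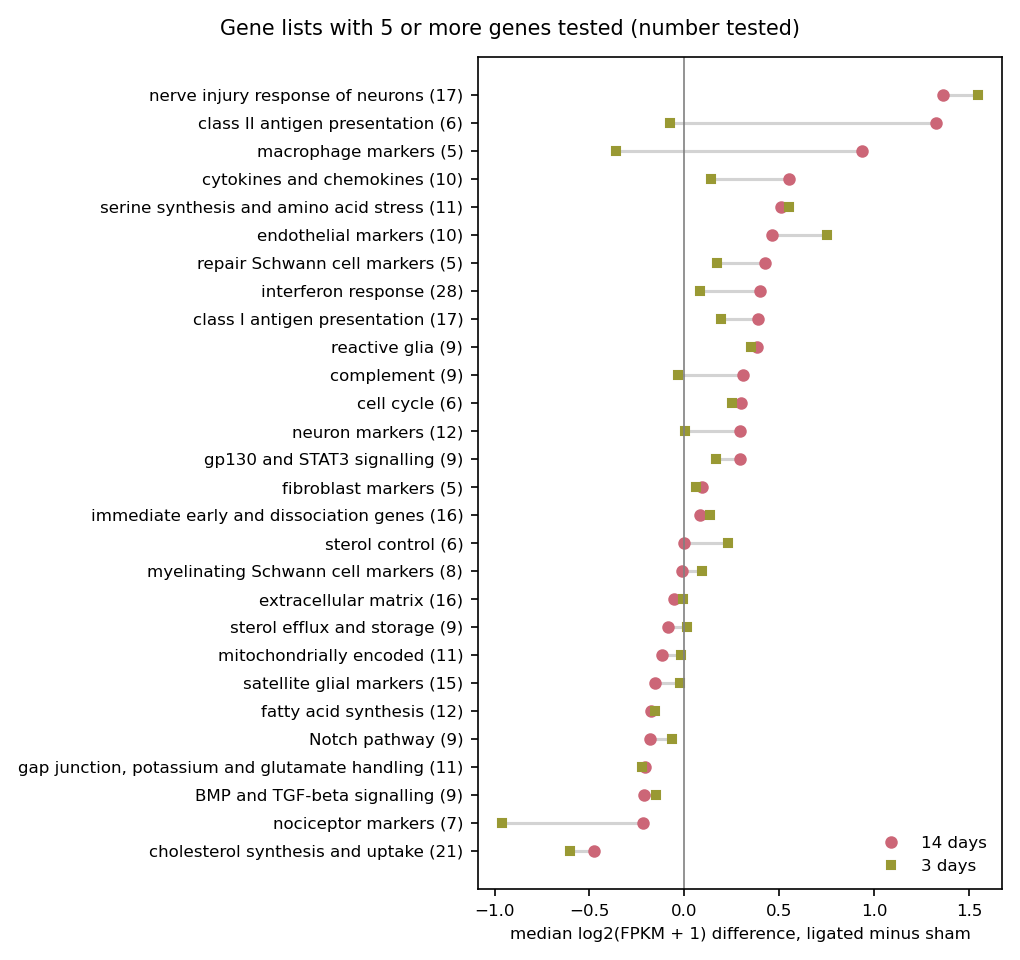
Median difference between ligated and sham SGCs on log2(FPKM + 1) over the tested genes of each list with 5 or more genes tested, at 14 days (circles) and 3 days (squares), with the number of genes in brackets. Of the lists drawn, nerve injury and class II genes have the 2 highest medians and cholesterol genes the lowest at 14 days. Class II and macrophage genes show wide gaps between the days. The macrophage median rests on the 5 of 15 markers that passed the filter, and at 14 days it is 0.37 without ligated library 1.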

How the data were processed

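RNA-seq of sorted SGCs was used as deposited. The authors' FPKM values are per gene and library. STAR, SAMtools, Cufflinks, DESeq2 and build mm10 are named in the submitters' processing notes, with no versions or order. The authors' deposited comparison table gives, per its header, a log2 fold change, its SE, an adjusted p-value and a mean normalized signal per gene (counts divided by size factors). Its sign was read against the FPKM values, and fold changes are printed as ligated over sham. Library depth is unknown.

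Lines sharing an Ensembl identifier were summed (121 lines), leaving 45882 genes, of which 44952 were named from GENCODE M21. A gene was tested where at least 4 of the 16 surgery libraries reached 1 FPKM. Values were tested as log2(FPKM + 1) in limma 3.58.1 (R 4.3.3) with a mean-variance trend, all 16 SGC surgery libraries of 3 and 14 days sharing 1 estimate of the spread. Adjustment was by Benjamini-Hochberg over 13924 genes, with a threshold of 0.05. The steps were tested on simulated data. Genes were named when past the threshold, among the 10 lowest limma p in each direction with FPKM above 0 in all 8 libraries, among the 30 lowest adjusted p of the authors' table, or, within a list, when called in that table or among its 3 highest levels, besides Serpina3n, B2m and Hmgcs1. The comparison, the members and the lists were chosen with earlier results of these data known. Promoter windows came from RefSeq (GRCm38.p6). Values of some genes are not reported here. Alternatives changed the pseudocount, filter, scaling, trend, weights, block and libraries. Tables were handled in Python 3.11.15 with pandas 2.3.3, and figures drawn with Matplotlib 3.10.9.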

Additional observations from a re-analysis of the deposited data

Results flagged for a closer look

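In groups of 4 libraries, a library was marked where its gap to its nearest neighbour exceeded Dixon's critical value of the group's range. Chance marks about 1 in 20 groups. Over the 109 genes followed, each with a ligated and a sham group, 11 groups were marked. That is about the number chance would give. In ligated library 4, 4 genes were lowest by such a gap: Phgdh at 17.4 FPKM (next 25.5), Stmn4 at 1.98 (next 7.7), Thy1 at 7.51 (next 19.5) and Serpinb1a, a protease inhibitor, at 9.51 (next 58.3). The first is a metabolic gene, and Stmn4 and Thy1 are neuronal.

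Among the sham libraries, Atf3 was lowest in library 1 at 2.74 FPKM (next 11.1), where Gpx1 was highest at 564 (next 522) and Prc1 at 4.77 (next 2.96). In sham library 2, Tac1 was highest at 90.3 FPKM (next 42) and Lgals1 at 238 (next 151). In sham library 3, Elovl5 was highest at 131 FPKM (next 121) and Ccnyl1, a cyclin-like gene, lowest at 1.23 (next 1.58).

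The effect of ligation differed between 14 and 3 days for 1 gene in limma, Polr2b, by 2.68 on the log2 scale (adjusted p = 0.000602). The gene is listed at 0 in all 4 ligated libraries of 3 days, which need not mean that it had no reads, and was not called at 14 days.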

How the results depend on the processing

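Of 17 alternatives, several moved the number of genes called at 14 days from 1. Array weights gave 10 genes, namely Crip1, Ahr, Serpina3n, Gal, Ric3, Flrt3, Sez6l, Sox11, H2-Ab1 and Hmgcs1, and the 8 libraries of 14 days alone gave 2. Leaving out each library gave 1 to 2, the second without ligated replicate 4 (Serpinb1a). Replicate numbers did not pair the samples: deviations of same-numbered 14-day libraries correlated at 0.069, −0.038, −0.027 and 0.033. A replicate block gave 0 genes called in limma, with 761 at an unadjusted p under 0.05 and Serpina3n at an adjusted p of 0.0537. For the effect at 14 days minus that at 3 days, the replicate block gave 0 (639 at an unadjusted p under 0.05), and leaving out each library gave 1 to 4, with 4 without 14-day ligated replicate 3 and 2 without 3-day ligated replicate 2. The cause was not tested. Serpina3n differed by 1.42 to 1.57 (adjusted p 0.00163 to 0.0537). Over 1852 combinations of 109 followed genes and an alternative, 2 changed direction, both of Polr2b, whose uncalled difference ran from −0.18 without sham replicate 1 to 0.037 without sham replicate 2 (leaving out ligated replicate 3, 0.011). List medians of fibroblast, mural cell, myelinating Schwann cell, nociceptor, sterol control and sterol efflux genes changed sign under some alternative. The macrophage median ran from 0.37 without ligated library 1 to 1.53 without ligated library 2 and was 1.74 with a pseudocount of 0.1, and the cell cycle median was 0.68 where genes needed a mean of 1 FPKM. With unknown library depth and 4 libraries a group, low genes such as class II are the least precise.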

Other observations

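Some lists held few or no differences. Of 9 Notch pathway genes tested, 3 had a positive and 6 a negative difference (median −0.18), and of 9 genes of BMP and TGF-beta signalling 2 and 7 (median −0.21). None of either list was called by limma or in the authors' deposited table, and none had an unadjusted limma p under 0.05. Smad1, a gene of BMP signalling off that list and chosen after its values were seen, rose by the authors' deposited table (0.74 ± 0.18, adjusted p = 0.00937). In limma it differed by 0.67 ± 0.17 (unadjusted p = 0.00145, adjusted p = 0.427). All 11 mitochondrially encoded genes tested had a negative difference (median −0.12), again with no call and no such p. The 16 immediate early genes, a class that enzymatic dissociation is known to raise, had a median of 0.08, and Atf3 was the 1 called in the authors' deposited table.

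Genes on no list, chosen after their values were seen, had a different effect at the 2 times by unadjusted p. P2ry14, a receptor for UDP-sugars, stood at 4.09, 2.6, 5.63 and 2.96 FPKM after ligation and 1.24, 1.1, 1.05 and 1.5 after sham surgery at 14 days, without overlap, and rose by the authors' deposited table (1.29 ± 0.29, adjusted p = 0.00282). Its effect was −0.39 ± 0.32 at 3 days and 1.08 ± 0.32 at 14 days. Wfdc1, a secreted protein with a protease inhibitor domain, stood at 4.72, 2.94, 4.27 and 3.08 against 6.67, 8.52, 7.59 and 7.61 FPKM at 14 days, with every ligated library below every sham library. Its effect was 0.58 ± 0.20 at 3 days and −0.87 ± 0.20 at 14 days (difference −1.45 ± 0.28, unadjusted p = 0.000126 and adjusted p = 0.584 in limma).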
